A study of Mus musculus with 6 samples.

Results

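The inflammasome genes were followed in RNA-seq libraries of mouse cardiac macrophages. The 10 genes were the sensors Nlrp3, Nlrc4, Aim2, Nlrp1a and Nlrp1b, the kinase Nek7, the adaptor Pycard, the caspases Casp1 and Casp4, and the pore-forming substrate Gsdmd. They were taken by symbol from 35865 annotated genes, and the deposited transcripts matched to them number 40. The series holds 6 libraries. There were 3 Tet2 KO (Tet2-/-) libraries, from macrophages that descend from Tet2-deficient donor haematopoietic progenitors, and 3 Tet2 WT (Tet2+/+) libraries, from macrophages that descend from wild-type donor progenitors. All are of strain C57BL/6J, and the macrophages were sorted from digested hearts. Per its title, the study concerns clonal haematopoiesis driven by Tet2 in mice that received no conditioning, and age-associated cardiac dysfunction. The comparison asks whether the transcripts of the inflammasome differ between macrophages of the 2 genotypes. The sort gate, the age and sex of the mice, the design of the knockout allele and the number of animals per library are not given in the sources used here. Nothing in the labels says that the libraries of a genotype come from separate animals, so each p-value reflects library-to-library spread that could be technical.

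An inflammasome is a cytosolic complex in which a sensor protein, once triggered, gathers the adaptor ASC (encoded by Pycard) and the protease caspase-1. Caspase-1 cuts the precursors of interleukin-1 beta and interleukin-18 into their active forms and cuts gasdermin D, whose fragment forms pores in the cell membrane. In macrophages the sensor NLRP3 and the interleukin-1 beta precursor are known to be induced at the transcript level by inflammatory signals, while assembly and cleavage are events of the protein, which transcript counts do not measure.

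The libraries held between 37349505 and 55771087 estimated counts. Tet2 itself stood at 81.2, 82.6 and 78.2 CPM (counts scaled to a common library size, here by TMM) in Tet2 KO, against 57.5, 76.1 and 60.8 CPM in Tet2 WT. Its log2 fold change was 0.32 ± 0.14 (SE), which did not pass the edgeR quasi-likelihood test (adjusted p = 0.159). The sources used here leave the deleted stretch of Tet2 unnamed, so a count over the whole gene does not check the genotype. Macrophage markers were present in every library, and the summed CPM of 16 of them ranged from 37313 to 45008 in Tet2 KO and from 23739 to 31878 in Tet2 WT. Of these markers 14 were called higher in Tet2 KO and 0 lower. The summed CPM of 15 fibroblast markers ranged from 2228 to 4061 in Tet2 KO and from 16301 to 30395 in Tet2 WT, and 14 were called lower. For each sum the genotypes did not overlap, at the smallest two-sided p an exact permutation test of 3 against 3 libraries allows, 0.1. In bulk libraries, fewer cells of a type and less RNA per cell cannot be told apart. Of the 11 neutrophil markers, S100a8, S100a9, Retnlg, Camp, Ltf, Ngp and Ly6g were under 1 CPM in every library. The rest, Mmp8, Mmp9, Csf3r and Cxcr2, each reached at least 1 CPM in a library. The summed level of the list overlapped between the genotypes (150 to 203 CPM in Tet2 KO, 88.4 to 164 CPM in Tet2 WT). Of its markers 4 were tested, with 1 called higher and 0 lower. The 8 dendritic cell markers summed to 118 to 140 CPM in Tet2 KO, against 85.4 to 101 CPM in Tet2 WT, with 1 called higher, Cd209a. The 9 pericyte and smooth muscle markers summed to 40.4 to 68.2 CPM in Tet2 KO, against 134 to 212 CPM in Tet2 WT, with 2 called lower. The macrophage, fibroblast, dendritic cell and pericyte and smooth muscle sums moved with genotype in the same libraries as the results that follow. Beyond the scaling and covariate comparisons given with those results, the part of the marker levels was not tested.

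All 10 inflammasome genes had a positive log2 fold change in Tet2 KO, from 0.06 for Nek7 to 0.77 for Nlrp1a, with a median of 0.52, while the median over all 16386 tested genes was 0.0025. Casp1, Pycard and Nlrp1a were called higher, that is, they had a Benjamini-Hochberg adjusted p under 0.05 in edgeR's quasi-likelihood test over all tested genes. The other 7 were not called, and 0 were called lower. Among all tested genes 6.11% were called higher and 10.1% lower. The CPM values of the genotypes did not overlap for 4 members, the 3 called genes and Aim2, all with Tet2 KO higher. Of all tested genes, 16.4% had non-overlapping groups in that direction. All 10 members passed the filter on low counts, and the smallest estimated count of a member in a library was 465.

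**Figure D1:**
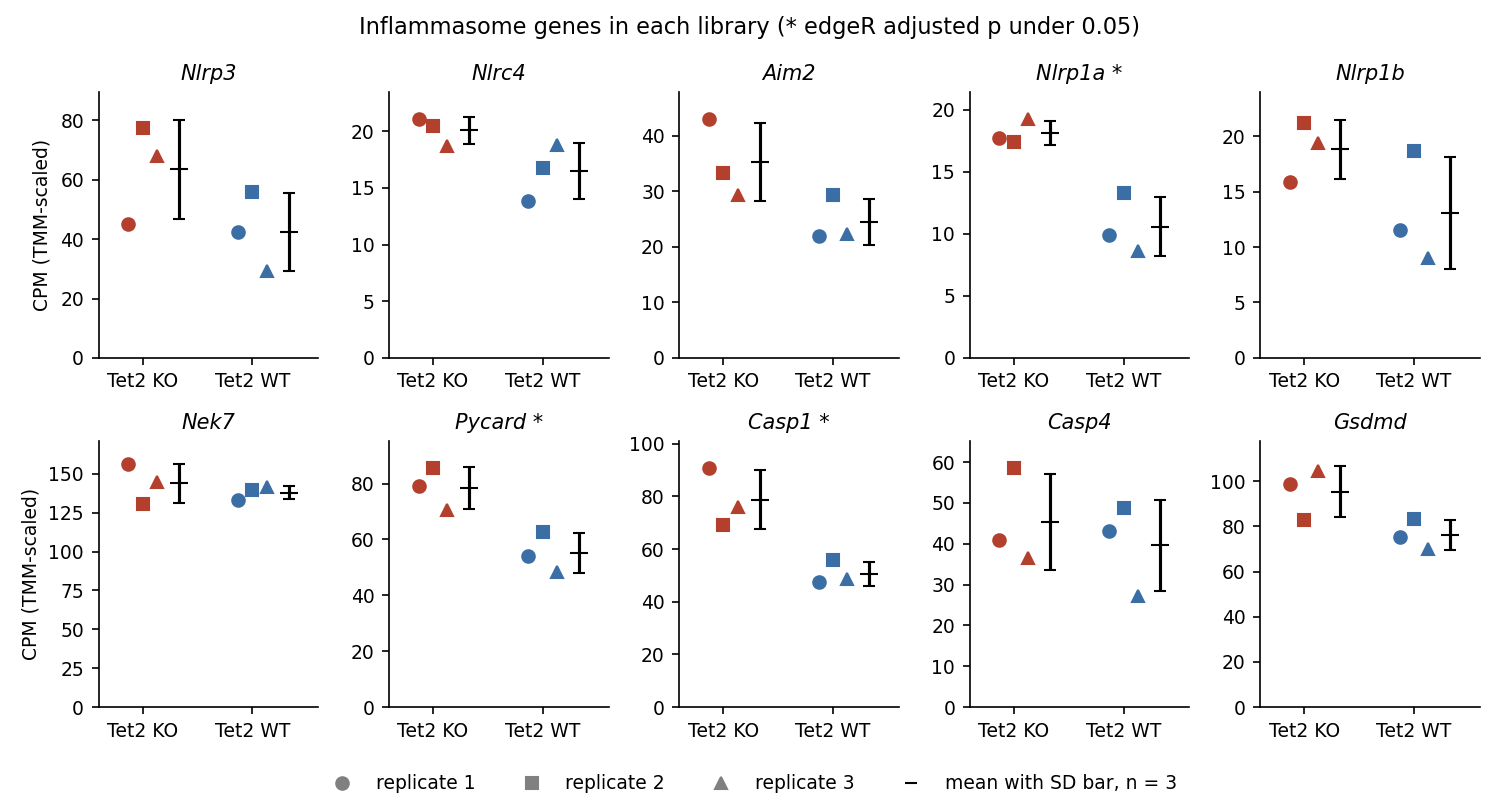
TMM-scaled CPM of each inflammasome gene (y axis, linear from 0) in Tet2 KO (red, left) and Tet2 WT (blue, right) libraries; symbols are replicates and the bar is the mean with its SD (n = 3 each). In the panels of Casp1, Pycard, Nlrp1a and Aim2 every Tet2 KO library lies above every Tet2 WT library, and in the panels of Nek7, Casp4, Nlrp3, Nlrp1b, Gsdmd and Nlrc4 the groups overlap.

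The adaptor and the caspase on which several inflammasome sensors converge were both higher in Tet2 KO. Casp1 (ENSMUSG00000025888.5, chr9:5298517-5307265, plus strand, in GRCm38 as for all genes here) stood at 90.9, 69.1 and 76.1 CPM in Tet2 KO, against 47.3, 55.8 and 48.6 CPM in Tet2 WT. The lowest Tet2 KO library was above the highest Tet2 WT library, and the spread was wider among the Tet2 KO libraries (SD 11.2 against 4.58 CPM). Casp1 was higher by 0.64 ± 0.14 on the log2 scale (SE; edgeR adjusted p = 0.0138). The call was lost when Tet2 WT replicate 1 (edgeR adjusted p = 0.0615) or Tet2 WT replicate 3 (0.0505) was omitted, with log2 fold changes of 0.60 and 0.62. On log2(TPM + 1) values, limma gave 0.46 ± 0.15 (adjusted p = 0.0719).

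Pycard (ENSMUSG00000030793.4, chr7:127989708-127993867, minus strand), whose protein ASC joins sensors to caspase-1 through its pyrin and CARD domains, stood at 79.1, 85.6 and 70.6 CPM in Tet2 KO, against 54.1, 62.8 and 48.4 CPM in Tet2 WT. Here too the groups did not overlap. On the log2 scale Pycard was higher by 0.51 ± 0.14 (edgeR adjusted p = 0.0353), but with single libraries left out the call held in 1 of 6 fits, that without Tet2 WT replicate 2 (edgeR adjusted p = 0.027). In the other 5 fits the edgeR adjusted p was 0.0731, 0.0693 and 0.0582 without Tet2 KO replicates 1, 2 and 3, and 0.119 and 0.122 without Tet2 WT replicates 1 and 3. The log2 fold change stayed between 0.44 and 0.62 over the 6 fits. It was also not called with length-scaled TPM counts (edgeR adjusted p = 0.0546) or on log2(TPM + 1) values (limma adjusted p = 0.139). Exons of Pycard overlap those of Gm45205 on the opposite strand over 485 bases, and the sources used here give no strand setting. Among the matched deposited transcripts, Pycard shares stretches of 31 bases with Mvp, Wdr76 and Nsl1 alone, and not with Gm45205. Reads from Gm45205 in the overlap could therefore have been counted to Pycard, and how many there were was not tested.

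Casp4, the mouse gene of caspase-11, which binds bacterial lipopolysaccharide in the cytosol, was not called. Casp4 (ENSMUSG00000033538.13, chr9:5308828-5336783, plus strand) lies next to Casp1 on the same strand and had 40.9, 58.6 and 36.4 CPM in Tet2 KO, against 43.0, 48.8 and 27.2 CPM in Tet2 WT. Replicate 2 was the highest library within each genotype and replicate 3 the lowest, and the groups overlapped. With 0.19 ± 0.24 on the log2 scale it was not called (edgeR adjusted p = 0.672), and the value lay below 0 in 2 of 6 fits that each omitted a library, -0.03 when Tet2 KO replicate 2 and -0.0010 when Tet2 WT replicate 3 was omitted. Gsdmd (ENSMUSG00000022575.5, chr15:75862327-75867408, plus strand), the substrate of both caspases, had 98.8, 82.7 and 105 CPM in Tet2 KO, against 75.5, 83.2 and 69.9 CPM in Tet2 WT. Its groups overlapped through 1 pair, Tet2 KO replicate 2 and Tet2 WT replicate 2. It differed by 0.32 ± 0.13 on the log2 scale (edgeR adjusted p = 0.145), and without Tet2 KO replicate 2 it was 0.42 and called (edgeR adjusted p = 0.0476).

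Among the sensors, Nlrp1a alone was called. The NLRP1 proteins of rodents cut themselves and are triggered when a pathogen protease or other insult degrades the amino-terminal part. Nlrp1a (ENSMUSG00000069830.10, chr11:71092236-71144704, minus strand) stood at 17.7, 17.4 and 19.2 CPM in Tet2 KO, against 9.92, 13.2 and 8.57 CPM in Tet2 WT. The 3 Tet2 KO libraries lay close together (SD 0.977 CPM) and above every Tet2 WT library (SD 2.41 CPM). On the log2 scale it was higher by 0.77 ± 0.20 (edgeR adjusted p = 0.0278). The call held when Tet2 KO replicate 2 (edgeR adjusted p = 0.0447) or Tet2 WT replicate 2 (0.0126) was omitted. It was lost when Tet2 KO replicates 1 and 3 were omitted in turn (edgeR adjusted p = 0.0584 and 0.101), and likewise for Tet2 WT replicates 1 and 3 (0.103 and 0.0913), with log2 fold changes from 0.66 to 0.98 over the 6 fits.

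Its neighbour and paralog Nlrp1b (ENSMUSG00000070390.12, chr11:71153102-71230733, minus strand) had 15.9, 21.1 and 19.4 CPM in Tet2 KO, against 11.5, 18.7 and 9.01 CPM in Tet2 WT. Tet2 WT replicate 2 reached into the Tet2 KO range. Its fold change of 0.52 ± 0.27 (log2) was not called (edgeR adjusted p = 0.233), and without Tet2 WT replicate 2 it was 0.88 and called (edgeR adjusted p = 0.0319). The 2 genes share sequence, and kallisto divides shared reads by a model. Of the 4218 different 31-base words in the transcripts of Nlrp1a, 418 (9.91%) also occur in another gene, 286 of them in Nlrp1b and 164 in the pseudogene Nlrp1c-ps. Of the 6195 words of Nlrp1b 6.07% occur in another gene, while Nlrp3, Casp1 and Gsdmd shared 0. The longest run of coding bases that Nlrp1a-202 and Nlrp1b-203 have in common is 102 bases long, at coding positions 2569 to 2670 of 3546 in Nlrp1a-202 and 2554 to 2655 of 3531 in Nlrp1b-203. It is shown because a read pair that lies wholly inside it matches both genes:
Nlrp1a and Nlrp1b shared run: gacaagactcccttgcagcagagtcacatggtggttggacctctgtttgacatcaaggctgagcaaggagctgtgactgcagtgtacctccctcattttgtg

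Nlrp3 (ENSMUSG00000032691.14, chr11:59541568-59566956, plus strand), the sensor that responds to potassium efflux and many sterile stimuli, had 45.2, 77.5 and 67.9 CPM in Tet2 KO, against 42.4, 55.8 and 29.2 CPM in Tet2 WT. Tet2 KO replicate 1 lay below Tet2 WT replicate 2, so the groups overlapped, and Nlrp3 had the widest range of the 10 members, the highest library at 2.65 times the lowest. Its log2 fold change of 0.58 ± 0.26 was close in size to that of Casp1 with a standard error nearly as large as that of Nlrp1b, and it was not called (edgeR adjusted p = 0.176). Nek7 (ENSMUSG00000026393.10, chr1:138482875-138620141, minus strand), the kinase-family protein that binds NLRP3 and is needed for its activation in mouse macrophages, had 156, 131 and 145 CPM in Tet2 KO, against 133, 139 and 141 CPM in Tet2 WT. These groups lay on top of each other, at 0.06 ± 0.12 on the log2 scale (edgeR adjusted p = 0.798) and the narrowest range of the 10, 1.19 times. Exons of Nek7 overlap those of the antisense gene Gm28501 over 118 bases.

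Aim2 (ENSMUSG00000037860.15, chr1:173350879-173466040, plus strand), which binds double-stranded DNA in the cytosol, had 43.0, 33.3 and 29.3 CPM in Tet2 KO, against 21.8, 29.2 and 22.3 CPM in Tet2 WT. The groups did not overlap, though Tet2 KO replicate 3 and Tet2 WT replicate 2 nearly met. The log2 fold change of 0.53 ± 0.19 was not called (edgeR adjusted p = 0.089) except without Tet2 WT replicate 2 (0.68, edgeR adjusted p = 0.0485). Nlrc4 (ENSMUSG00000039193.9, chr17:74425438-74459142, minus strand), which assembles when NAIP receptors bind bacterial flagellin or secretion-system proteins, had 21.1, 20.4 and 18.7 CPM in Tet2 KO, against 13.9, 16.7 and 18.8 CPM in Tet2 WT. The groups overlapped by the margin between 18.7 and 18.8 CPM, and Nlrc4 was not called at 0.29 ± 0.17 on the log2 scale (edgeR adjusted p = 0.315).

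The upstream sequences of the called genes Casp1, Pycard and Nlrp1a, and of Nlrp1b as the paralog of Nlrp1a, are given because these are the members that were called higher, with the nearest relative of one of them. Each is the 250 bases before the transcription start in RefSeq (GRCm38.p6), on the strand of the gene, at chr9:5298267-5298516 (plus), chr7:127993868-127994117 (minus), chr11:71144705-71144954 (minus) and chr11:71230734-71230983 (minus). Capitals mark GAGGAA, the core of sites for PU.1 and other ETS factors, and TTTCNNT, a part of interferon-stimulated elements, with either strand counted:
Casp1: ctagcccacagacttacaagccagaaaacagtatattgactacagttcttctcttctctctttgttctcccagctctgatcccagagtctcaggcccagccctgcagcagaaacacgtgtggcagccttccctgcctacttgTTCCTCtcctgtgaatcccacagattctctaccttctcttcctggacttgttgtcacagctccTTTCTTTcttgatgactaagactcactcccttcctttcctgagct
Pycard: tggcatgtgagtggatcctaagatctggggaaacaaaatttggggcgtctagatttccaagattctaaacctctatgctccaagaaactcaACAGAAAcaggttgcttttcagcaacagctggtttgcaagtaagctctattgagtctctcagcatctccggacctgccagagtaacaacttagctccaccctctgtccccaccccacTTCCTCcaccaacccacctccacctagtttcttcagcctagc
Nlrp1a: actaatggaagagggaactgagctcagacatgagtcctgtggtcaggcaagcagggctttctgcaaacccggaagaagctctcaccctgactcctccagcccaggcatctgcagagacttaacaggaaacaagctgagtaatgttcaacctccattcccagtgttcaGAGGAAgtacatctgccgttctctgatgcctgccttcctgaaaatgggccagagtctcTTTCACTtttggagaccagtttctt
Nlrp1b: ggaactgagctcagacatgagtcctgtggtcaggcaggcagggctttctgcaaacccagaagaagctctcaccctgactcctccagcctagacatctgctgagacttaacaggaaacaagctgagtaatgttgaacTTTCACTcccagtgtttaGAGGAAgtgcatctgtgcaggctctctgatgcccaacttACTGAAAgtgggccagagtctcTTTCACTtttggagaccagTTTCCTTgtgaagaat
The RefSeq table held 12 windows for 9 of the 10 members, with 2 each for Nlrp3, Casp4 and Nlrp1b and without Gsdmd. GAGGAA was found in 6 of the 12 windows, from 6 members (Nlrp3, Pycard, Casp1, Aim2, Nlrp1a and Nlrp1b) and in 23.3% of all 32851 promoters, and TTTCNNT in 10 of the 12, from 7 members, and in 48.4% of all. GGGACTT, a part of NF-kB sites, was found in 4 of the 12, from Casp4, Nlrc4 and Aim2, and in 4.6% of all, and TGANTCA, the AP-1 site, in 0 of the 12 and in 6.7% of all. The 2 Casp4 windows (chr9:5308599-5308848 and chr9:5308610-5308859) overlap, so their GGGACTT matches are 1 site counted in both. Matches to TTTCNNT in the bases they share are likewise counted in both. A match is a description of the letters and not of binding. In an alignment of 237 bases the windows of Nlrp1a and Nlrp1b shown are identical at 219 (92.4%), with GAGGAA at -83 to -78 of the start in Nlrp1a and at -96 to -91 in Nlrp1b. This Nlrp1b window carries TTTCNNT at 4 places and that of Nlrp1a at 1. The other Nlrp1b window (chr11:71201457-71201706, minus), which lies directly before Nlrp1b-203, is identical to that of Nlrp1a at 121 of 175 aligned bases (69.1%), with TTTCNNT at 1 place and GAGGAA at 0.

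The members did not rank the libraries alike. The highest library was Tet2 KO replicate 1 for 4 members (Casp1, Nlrc4, Aim2 and Nek7), Tet2 KO replicate 2 for 4 (Nlrp3, Pycard, Casp4 and Nlrp1b) and Tet2 KO replicate 3 for 2 (Gsdmd and Nlrp1a). The lowest library was Tet2 WT replicate 3 for 6 members, Tet2 WT replicate 1 for 3 (Casp1, Nlrc4 and Aim2) and Tet2 KO replicate 2 for Nek7. By root mean square difference of centred log2 CPM over the 6 libraries, among 10978 protein-coding genes, the profiles nearest to that of Casp1 were those of Tbxas1 (0.0388), Capzb (0.0411) and Tmem106a (0.0412). Nearest to Nlrp3 were Tnfaip3 (0.0747), Fos (0.0829) and Gm4070 (0.102), and nearest to Pycard were Cdkn1a (0.0494), Eipr1 (0.058) and Nfkbib (0.0643). The median difference over all compared genes was 0.359 for Casp1, 0.501 for Nlrp3 and 0.332 for Pycard.

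TPM values, which correct counts for transcript length and so allow levels to be compared between genes, placed the members in 2 tiers. Pycard had the highest TPM summed over its transcripts (125 ± 21.5 in Tet2 KO, against 94.0 ± 9.11 in Tet2 WT; mean ± SD, n = 3 each). Gsdmd followed at 91.7 ± 14.4 in Tet2 KO, against 84.6 ± 5.27 in Tet2 WT, Casp4 at 77.6 ± 20.3 in Tet2 KO, against 78.4 ± 20.5 in Tet2 WT, Casp1 at 73.5 ± 11.9 in Tet2 KO, against 52.7 ± 3.76 in Tet2 WT, and Aim2 at 56.8 ± 17.2 in Tet2 KO, against 42.7 ± 7.92 in Tet2 WT. Nek7 had 44.3 ± 4.73 TPM in Tet2 KO, against 47.8 ± 2.29 TPM in Tet2 WT, and Nlrp3 had 44.2 ± 10.4 TPM in Tet2 KO, against 34.1 ± 11.2 TPM in Tet2 WT. The ranges over the 6 libraries of neighbours in this order overlapped. The lower tier held Nlrc4 (4.42 to 6.61 TPM over the 6 libraries), Nlrp1a (3.49 to 6.84 TPM) and Nlrp1b (3.30 to 6.39 TPM), whose ranges overlapped one another and none of the upper tier, where the lowest value was 23.1 TPM for Nlrp3.

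That order rests in part on short annotated transcript models, which gain TPM for few reads. Models under 1000 bases held 85.3% of the TPM of Pycard, 75.2% of that of Aim2, 64.1% of that of Casp4 and 60.1% of that of Nlrp3 in Tet2 KO. In Tet2 WT the same shares were 84.5% for Pycard, 76.1% for Aim2, 66.7% for Casp4 and 61.4% for Nlrp3. In counts the same models held 33.7% of Pycard in Tet2 KO and 32.0% in Tet2 WT. With models of 1000 bases or longer alone, the order was headed by Casp1 (49.0 to 86.1 TPM over the 6 libraries), Gsdmd (52.8 to 72.4 TPM) and Nek7 (39.3 to 50.3 TPM). Casp4 (19.3 to 32.4 TPM), Nlrp3 (9.55 to 20.7 TPM), Pycard (12.8 to 18.2 TPM) and Aim2 (8.54 to 16.1 TPM) then followed, while Nlrc4, Nlrp1a and Nlrp1b, which have no shorter model, kept their levels. Pycard-201, the long model of 3800 bases, had 18.2, 18.1 and 17.7 TPM in Tet2 KO, against 14.7, 16.05 and 12.8 TPM in Tet2 WT.

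At the level of single transcripts, 0 of the 35 tested of the 40 were called in either direction by edgeR's quasi-likelihood test over all transcripts, with 8 at an unadjusted p under 0.05 and a smallest adjusted p of 0.0894. Over all 53249 tested transcripts 0.447% were called higher and 2.21% lower, 2.66% together. The log2 fold change was positive for 28 of the 35, with a median of 0.36, while the median over all transcripts was -0.0061. For the share of the gene taken by a transcript, 0 of 34 tested passed limma's diffSplice test (1 at an unadjusted p under 0.05, smallest adjusted p 0.486), in which 0.242% of all tested transcripts were called. How many of all transcripts had TPM values without overlap between the genotypes was not counted. Among all tested genes, TMM-scaled CPM did not overlap for 16.4% with Tet2 KO higher and for 18.1% with Tet2 KO lower.

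Casp1 is deposited with 1 transcript, Casp1-201, of 10 exons, at 86.1, 62.5 and 72.0 TPM in Tet2 KO, against 49.0, 56.5 and 52.6 TPM in Tet2 WT. The groups did not overlap (log2 fold change 0.60 ± 0.15, edgeR adjusted p = 0.0894). Its deposited length is 1531 bases and that of the annotation version used here 1497. Nearly all of Nlrp1a came from Nlrp1a-202, which took 98.4% of the counts of the gene in Tet2 KO and 97.1% in Tet2 WT on average and had 6.25, 5.71 and 6.82 TPM in Tet2 KO, against 3.77, 4.81 and 3.42 TPM in Tet2 WT (0.76 ± 0.20, edgeR adjusted p = 0.115). Nlrp1b was divided between Nlrp1b-203, Nlrp1b-204 and the model Nlrp1b-205, annotated as a target of nonsense-mediated decay, which held 55.7% of counts in Tet2 KO and 48.5% in Tet2 WT. Nlrp1b-203 had 1.26, 1.90 and 1.998 TPM in Tet2 KO, against 0.787, 1.22 and 0.635 TPM in Tet2 WT, without overlap (1.08 ± 0.37, edgeR adjusted p = 0.211). The split between the other 2 models varied most in Tet2 WT, where Nlrp1b-204 held 3.97%, 31.2% and 61.5% of the counts. Nlrp1b-204 has 0 words of 31 bases that no other transcript of the gene shares, so no single word of that length marks it. Whether any read pair was its own was not tested. Nlrp1b-201 was at 0 in all 6 libraries.

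Nlrp3-201 took 68.8% of the counts of Nlrp3 in Tet2 KO, against 63.7% in Tet2 WT, at 11.3, 16.9 and 15.3 TPM in Tet2 KO, against 9.45, 12.6 and 7.80 TPM in Tet2 WT (0.66 ± 0.25, edgeR adjusted p = 0.269). Of its 31-base words 0.9% are its own, so these shares depend on how kallisto divided shared reads. Casp4-201, the coding model of 9 exons, had 17.6, 15.2 and 15.1 TPM in Tet2 KO, against 14.0, 14.6 and 9.82 TPM in Tet2 WT, without overlap, unlike the sum over the gene (0.44 ± 0.22, edgeR adjusted p = 0.427). It held 36.5% of Casp4 counts in Tet2 KO, against 29.2% in Tet2 WT, and models that are not protein coding held 64.9% of Casp4 TPM in Tet2 KO, against 72.6% in Tet2 WT. Gsdmd-201 took 89.4% of Gsdmd counts in Tet2 KO and 86.8% in Tet2 WT. Nek7-201 had the lowest log2 fold change of the 35 transcripts, with 3.95, 6.03 and 6.32 TPM in Tet2 KO, against 9.33, 7.70 and 9.76 TPM in Tet2 WT, without overlap (-0.58 ± 0.22, edgeR adjusted p = 0.266). It was also the transcript with the smallest p for its share of the gene (limma diffSplice adjusted p = 0.486), and 0.8% of its 31-base words are its own. Nek7-203, the main model, had 34.9, 24.2 and 31.7 TPM in Tet2 KO, against 29.5, 30.97 and 32.3 TPM in Tet2 WT.

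**Figure D2:**
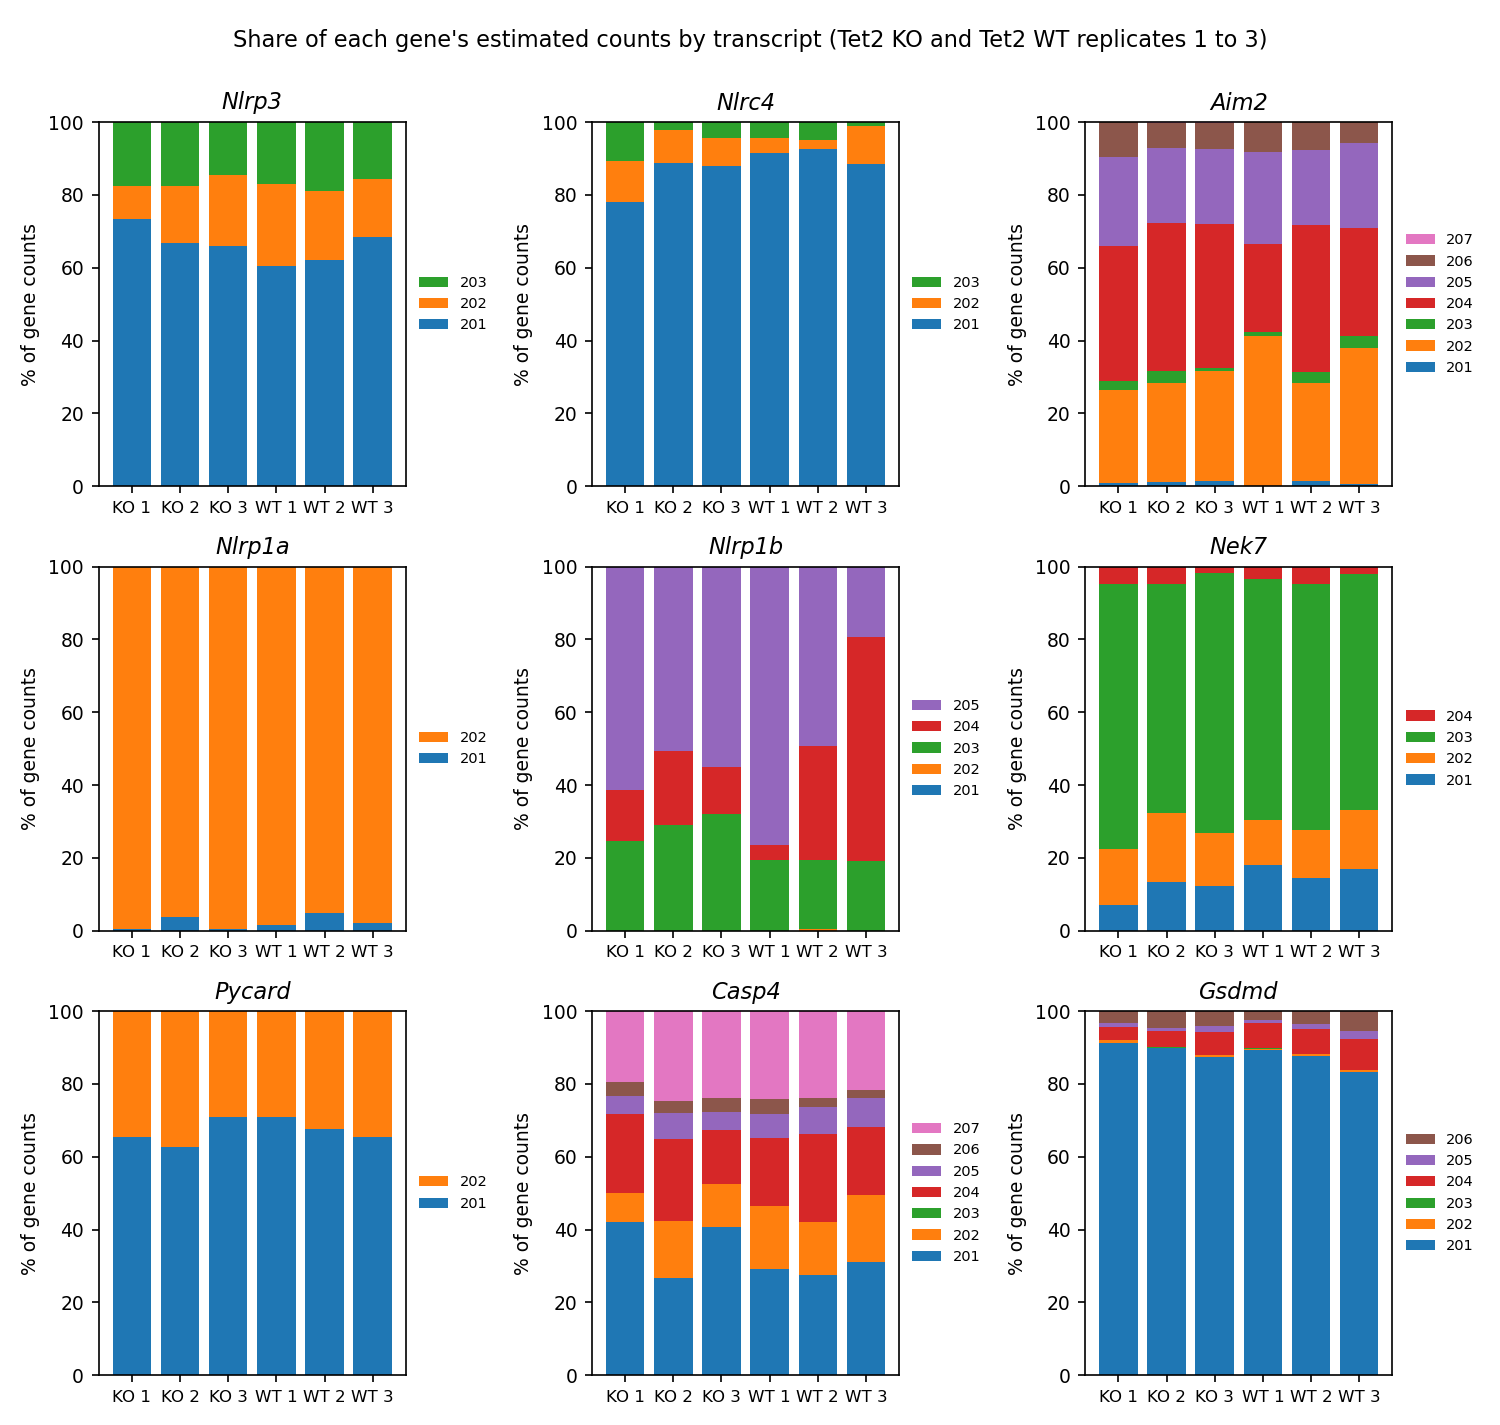
Share of the estimated counts of each gene (y axis, percent) taken by each of its annotated transcripts (colours, numbered as in the annotation) in Tet2 KO and Tet2 WT replicates; Casp1, with a single transcript, is not drawn. Nlrp1a-202 fills nearly the whole bar in every library, while the parts of Nlrp1b-204 and Nlrp1b-205 change places between Tet2 WT replicates 1 and 3.

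The genes were then set against Adgre1 (the macrophage receptor F4/80) and Csf1r (the receptor for macrophage colony-stimulating factor), whose counts served as the scale of each library. On the TMM scale Adgre1 averaged 1331 ± 153 CPM in Tet2 KO, against 780.4 ± 124 CPM in Tet2 WT (SD, n = 3 each; log2 fold change 0.77 ± 0.16 SE, edgeR adjusted p = 0.0112), and Csf1r averaged 3259 ± 285 CPM in Tet2 KO, against 1905 ± 367 CPM in Tet2 WT (0.77 ± 0.18, edgeR adjusted p = 0.0167). Without Tet2 KO replicate 3 both missed the threshold (edgeR adjusted p = 0.0594 for Adgre1 and 0.0834 for Csf1r). With libraries scaled to the geometric mean of their 2 counts, the median log2 fold change of all tested genes was -0.78, a shift of -0.79 from the TMM scale. On this scale 50% of all tested genes were called lower in Tet2 KO and 0.104% higher, 50.1% together, so the member counts are read against those shares.

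Relative to Adgre1 and Csf1r, all 10 members had a negative log2 fold change, with a median of -0.26. The rescaling moves all genes by nearly the same amount, so this change of sign follows from the scale. Of the members 1, Nek7, was called lower and 0 were called higher. Casp1 stood at 4.25%, 3.73% and 3.37% of the geometric mean in Tet2 KO, against 4.77%, 4.005% and 3.83% in Tet2 WT (-0.15 ± 0.21, edgeR adjusted p = 0.539). Pycard stood at 3.70%, 4.62% and 3.12% in Tet2 KO, against 5.45%, 4.51% and 3.82% in Tet2 WT (-0.27 ± 0.22, edgeR adjusted p = 0.306). Nlrp1a stood at 0.828%, 0.939% and 0.851% in Tet2 KO, against 0.999%, 0.951% and 0.676% in Tet2 WT (-0.0038 ± 0.28, edgeR adjusted p = 0.991). The 3 genes called higher on the TMM scale thus overlapped between the genotypes in their ratio to these macrophage transcripts.

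Nek7 stood at 7.31%, 7.07% and 6.41% in Tet2 KO, against 13.4%, 10.005% and 11.1% in Tet2 WT (-0.73 ± 0.19, edgeR adjusted p = 0.00563), and remained called in all 6 fits with a library left out, with an edgeR adjusted p of at most 0.0442. Its fold change lay near the median of all genes on this scale. Gsdmd stood at 4.62%, 4.47% and 4.63% in Tet2 KO, against 7.60%, 5.97% and 5.51% in Tet2 WT, without overlap (-0.48 ± 0.20, edgeR adjusted p = 0.0582). Nlrc4 was at 0.985%, 1.103% and 0.829% in Tet2 KO, against 1.40%, 1.201% and 1.48% in Tet2 WT, also without overlap (-0.48 ± 0.26, edgeR adjusted p = 0.122). These 3 members were all that did not overlap on this scale, whereas among all tested genes 64.7% did not overlap with Tet2 KO lower and 0.354% with Tet2 KO higher. Casp4 was at 1.91%, 3.16% and 1.61% in Tet2 KO, against 4.33%, 3.50% and 2.15% in Tet2 WT (-0.58 ± 0.30, edgeR adjusted p = 0.117). It was called when Tet2 KO replicate 2 (-0.92, edgeR adjusted p = 0.0213) or Tet2 WT replicate 3 (-0.81, 0.0303) was omitted. Nlrp3 (-0.18 ± 0.28), Aim2 (-0.24 ± 0.25) and Nlrp1b (-0.23 ± 0.30) overlapped and were not called (edgeR adjusted p = 0.584, 0.391 and 0.514). The log2 fold change of Nlrp3 was 0.03 without Tet2 KO replicate 1.

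**Figure D3:**
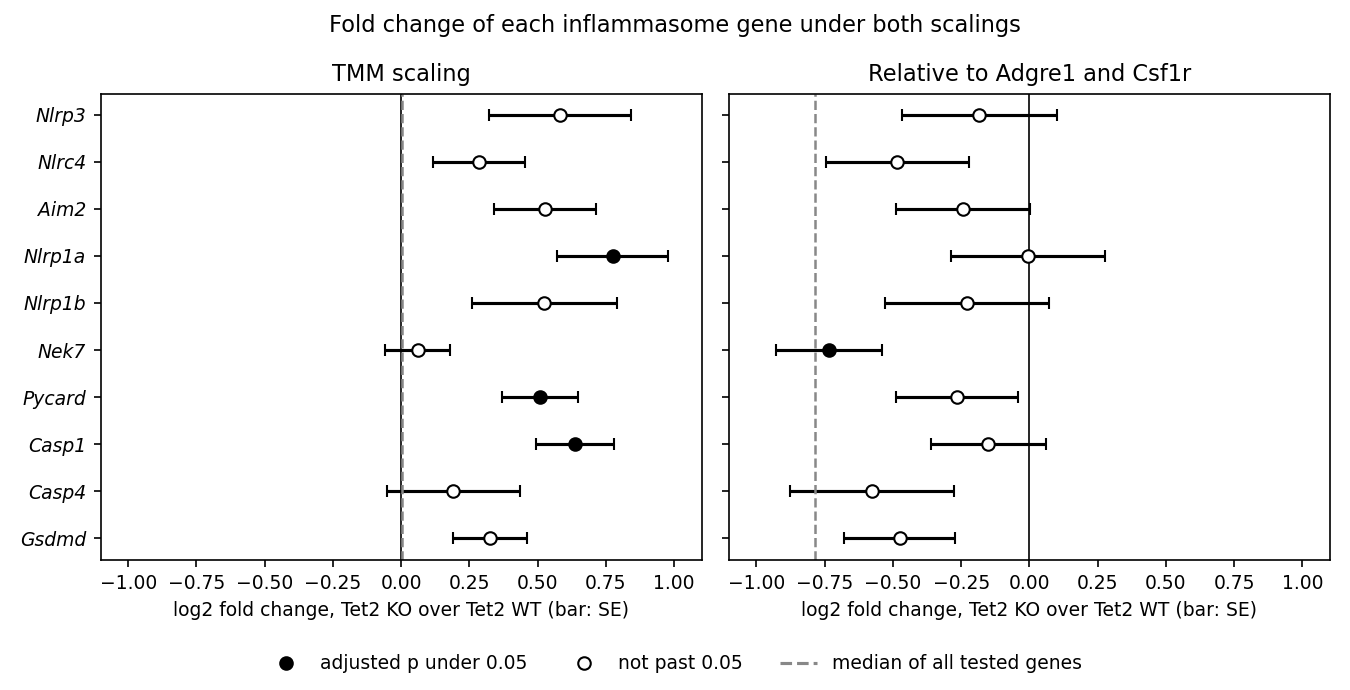
Log2 fold change of each inflammasome gene, Tet2 KO over Tet2 WT (x axis; bars are SE, n = 3 libraries each), with TMM scaling on the left and relative to Adgre1 and Csf1r on the right. Filled points passed an edgeR adjusted p of 0.05 and the dashed line is the median of all 16386 tested genes; all 10 points lie right of that line in both panels.

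**Figure D4:**
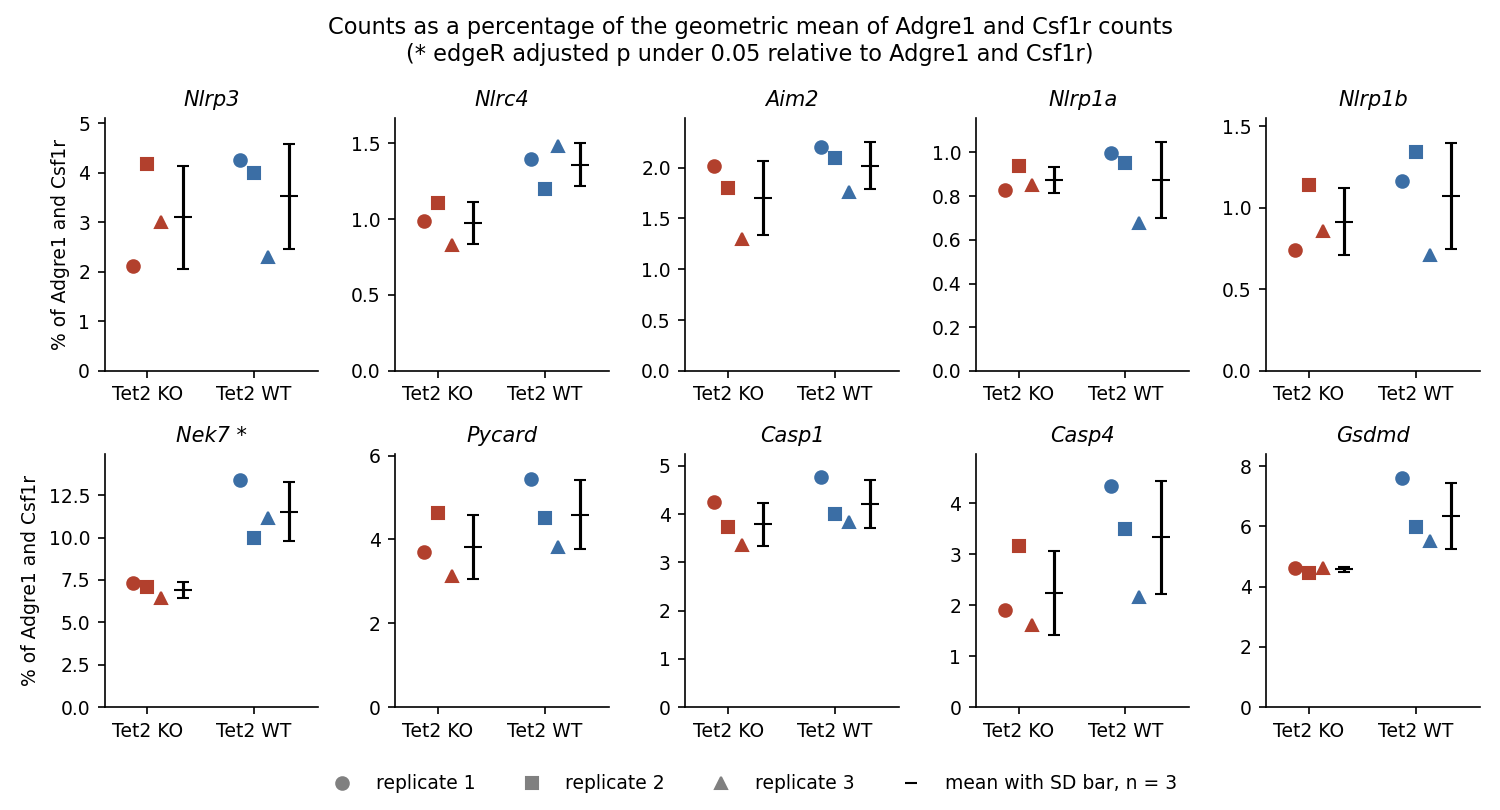
Counts of each inflammasome gene as a percentage of the geometric mean of the Adgre1 and Csf1r counts of the same library (y axis, linear from 0), Tet2 KO left and Tet2 WT right, with the mean and SD (n = 3 each). The genotypes overlap for 7 genes, and Tet2 KO lies lower without overlap for Nek7, Gsdmd and Nlrc4.

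In an edgeR fit with the fibroblast marker level of each library as a second term, 0 members were called and 0 had an unadjusted p under 0.05. The log2 fold change for genotype was then 0.86 ± 0.64 for Casp1, -0.35 ± 0.55 for Pycard and 0.16 ± 0.89 for Nlrp1a (edgeR adjusted p = 0.64, 0.827 and 0.955). Over all genes that fit called 0, with 1514 at an unadjusted p under 0.05. Genotype and fibroblast marker level do not overlap in these libraries, so their parts in the fold changes cannot be told apart.

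The related genes were taken from 4 lists with 54 annotated genes, of which 50 were tested. On the TMM scale 12 were called higher and 2 lower, where 6.11% of all tested genes were called higher and 10.1% lower; the median over the 50 was 0.37 (log2). With single libraries left out, the count of higher genes ranged from 5 without Tet2 WT replicate 1 to 14 without Tet2 WT replicate 2. It was 6 when Tet2 KO replicate 3 was omitted and 7 when Tet2 WT replicate 3 was. DESeq2 tested 53 and called 19 higher and 3 lower. The count of higher genes was 3 with replicates 1 of both genotypes left out together and 5 with limma on log2(TPM + 1) values. With the fibroblast covariate it was 0, as was the count of lower genes. Relative to Adgre1 and Csf1r 0 were called higher and 12 lower, with a median of -0.40, on the scale where 50% of all genes were called lower.

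Of 10 substrate and pore-forming genes, 8 were tested, 1 rose and 1 fell, beside 6.11% and 10.1% of all tested genes. Il1b, the cytokine that caspase-1 matures, had 713, 1124 and 778 CPM in Tet2 KO, against 331, 523 and 368 CPM in Tet2 WT. Every Tet2 KO library lay above every Tet2 WT library (log2 fold change 1.098 ± 0.22, edgeR adjusted p = 0.00965), and the call held in all 6 fits with a library left out. Relative to Adgre1 and Csf1r it had 33.4%, 60.7% and 34.5% in Tet2 KO, against 33.3%, 37.5% and 29.0% in Tet2 WT, which overlapped (0.36 ± 0.22, edgeR adjusted p = 0.173). Il18, the other cytokine caspase-1 matures, had 23.7, 31.03 and 23.4 CPM in Tet2 KO, against 16.4, 20.6 and 16.03 CPM in Tet2 WT, and was not called (0.56 ± 0.18, edgeR adjusted p = 0.0629). Il33, an alarmin known mainly from fibroblasts and other stromal cells, fell to 1.24, 2.18 and 2.62 CPM in Tet2 KO, against 23.5, 15.2 and 15.6 CPM in Tet2 WT (-3.15 ± 0.32, edgeR adjusted p = 0.000242), beside a median of -3.01 for the fibroblast markers.

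Of 14 other sensors and NAIP receptors tested, 1 rose and 0 fell, beside 6.11% and 10.1% of all tested genes. Zbp1, which senses Z-form nucleic acid, had 40.0, 68.2 and 40.6 CPM in Tet2 KO, against 22.7, 25.8 and 25.4 CPM in Tet2 WT (1.01 ± 0.21, edgeR adjusted p = 0.0108; 0.0579 without Tet2 WT replicate 1). The flagellin and secretion-system receptors that act with NLRC4 were not called: Naip2 averaged 30.6 ± 3.72 CPM in Tet2 KO, against 26.6 ± 2.51 CPM in Tet2 WT (SD, n = 3 each; 0.20 ± 0.15 SE, edgeR adjusted p = 0.446), and Naip5 averaged 36.9 ± 5.61 CPM in Tet2 KO, against 28.6 ± 7.12 CPM in Tet2 WT (0.37 ± 0.20, edgeR adjusted p = 0.268).

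Of 17 activators and upstream signals, 6 rose and 0 fell, beside 6.11% and 10.1% of all tested genes. Ripk3, a kinase of necroptosis, averaged 19.7 ± 0.617 CPM in Tet2 KO, against 10.4 ± 1.75 CPM in Tet2 WT (0.91 ± 0.18, edgeR adjusted p = 0.00873), and Myd88, the adaptor of Toll-like and interleukin-1 receptors, averaged 120 ± 6.52 CPM in Tet2 KO, against 84.0 ± 1.77 CPM in Tet2 WT (0.52 ± 0.11, edgeR adjusted p = 0.0125). Irf8 (0.64 ± 0.15), a myeloid transcription factor, Gbp3 (0.67 ± 0.17), an interferon-induced GTPase, and Casp8 (0.66 ± 0.18), an apoptotic caspase that can also cut interleukin-1 beta precursor, were called as well (edgeR adjusted p = 0.0177, 0.0241 and 0.0362). The kinase gene Syk, the other one called, is outside the 5 with the smallest p and was named after its value was seen (0.60 ± 0.17, edgeR adjusted p = 0.0384). All 6 lost their calls in limma on log2(TPM + 1) and log2(TPM + 0.1) values, Ripk3 also with length-scaled TPM counts and Casp8 also with a replicate block. Of these 6, Ripk3 alone kept its call in all 6 edgeR fits with a library left out. Without Tet2 WT replicate 1 the calls of Gbp3, Irf8, Casp8 and Syk were lost, and without Tet2 KO replicate 3 those of Gbp3, Myd88, Casp8 and Syk. Losses also came without Tet2 WT replicate 3 (Gbp3, Irf8, Myd88 and Casp8), Tet2 KO replicate 1 (Gbp3, Irf8 and Casp8) and, for Syk, Tet2 KO replicate 2 and Tet2 WT replicate 2, with edgeR adjusted p-values of at most 0.131.

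Of the 11 genes tested from the list named inhibitors and brakes, 4 rose and 1 fell, beside the same 6.11% and 10.1%. Whether each gene on it acts as a brake was not tested. Trim30a, known to restrain NLRP3, averaged 131 ± 16.4 CPM in Tet2 KO, against 78.4 ± 8.94 CPM in Tet2 WT (0.74 ± 0.14, edgeR adjusted p = 0.00709), and Pstpip1, a partner of pyrin, averaged 56.9 ± 3.35 CPM in Tet2 KO, against 34.7 ± 5.21 CPM in Tet2 WT (0.71 ± 0.15, edgeR adjusted p = 0.00944). Both calls held with each library left out. Il1r2, the decoy interleukin-1 receptor, had 4.93, 4.75 and 7.89 CPM in Tet2 KO, against 1.01, 1.26 and 2.76 CPM in Tet2 WT (1.80 ± 0.44, edgeR adjusted p = 0.0204), and lost its call without Tet2 KO replicate 3, Tet2 WT replicate 1 or Tet2 WT replicate 2 (edgeR adjusted p of at most 0.0888). Il1rn, the interleukin-1 receptor antagonist, had 42.0, 61.9 and 42.3 CPM in Tet2 KO, against 16.1, 35.3 and 24.8 CPM in Tet2 WT. It passed narrowly (0.94 ± 0.28, edgeR adjusted p = 0.0496) and kept its call in 1 of 6 fits, that without Tet2 WT replicate 2 (0.0139), with up to 0.121 without each other library. Of 10 other settings 4 called it, and it was lost with upper-quartile scaling, no low-count filter, the stricter filter, length-scaled TPM counts and both limma TPM fits. Casp12, an inflammatory caspase gene near Casp1 and Casp4 on mouse chromosome 9, fell to 7.20, 3.68 and 6.74 CPM in Tet2 KO, against 28.9, 13.9 and 21.6 CPM in Tet2 WT (-1.87 ± 0.33, edgeR adjusted p = 0.00478), in the same libraries in which the fibroblast markers were lower. Dpp9, the protease that holds NLRP1 inactive, averaged 51.0 ± 1.89 CPM in Tet2 KO, against 52.8 ± 4.83 CPM in Tet2 WT (-0.05 ± 0.12, edgeR adjusted p = 0.844).

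**Figure D5:**
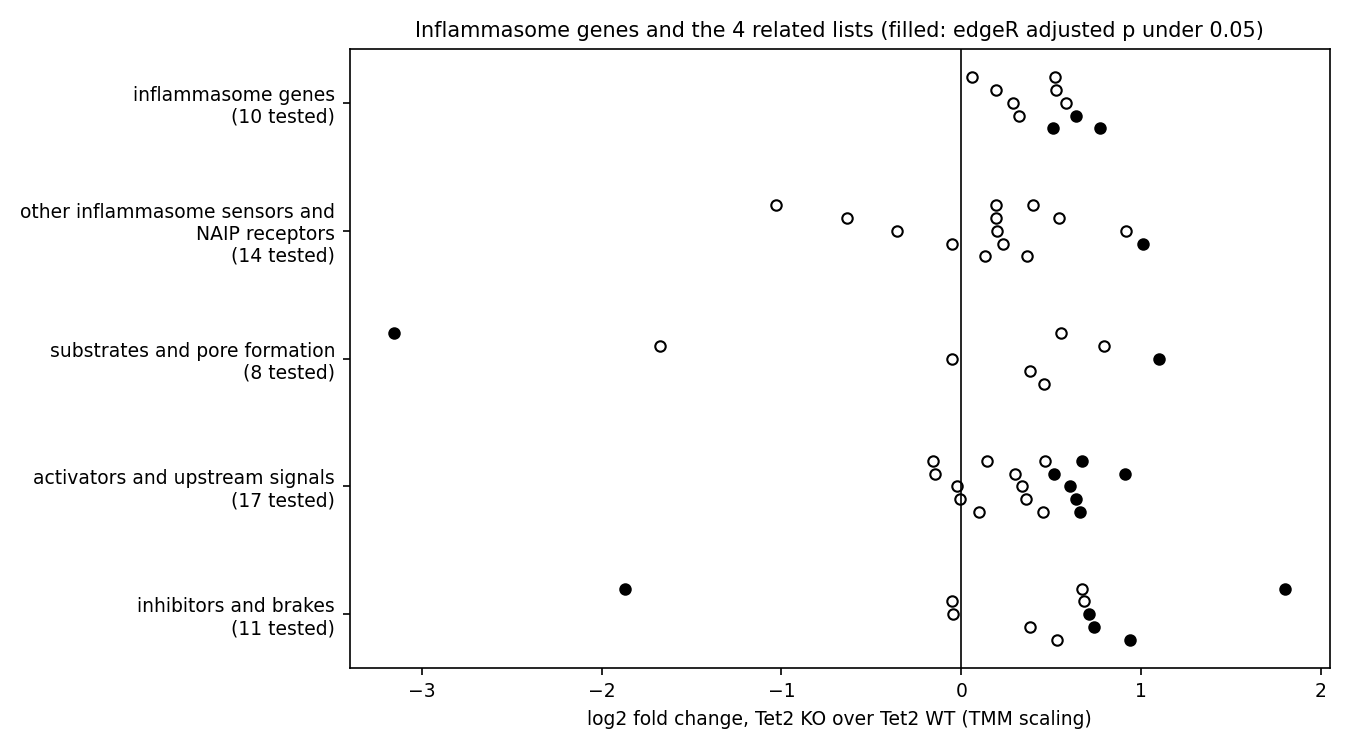
Log2 fold change, Tet2 KO over Tet2 WT on the TMM scale (x axis), of each tested inflammasome gene and each tested gene of the 4 related lists (rows; vertical position within a row carries no value). Filled points passed an edgeR adjusted p of 0.05; the filled points left of 0 are Il33 and Casp12.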

How the data were processed

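Paired-end RNA-seq of sorted mouse cardiac macrophages gave 3 Tet2 KO and 3 Tet2 WT libraries. Per the submitters' processing notes, the authors trimmed reads with Trim Galore 0.6.4 and ran kallisto 0.44.0 on GRCm38. The sources used here name no transcript annotation release. The deposited values, per the file headers, are the estimated count of every transcript, which carries no normalization, and its TPM, which is scaled within a library. kallisto divides reads that transcripts share by a model, so closely related genes and isoforms depend on it.

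Of 118783 transcripts, 116622 matched GENCODE M21 by identifier without version, and the 2161 others (at most 0.671% of counts) were left out. Estimated counts were summed per gene, rounded, filtered with edgeR's filterByExpr (16386 genes kept), scaled by TMM and tested by edgeR 4.0.16's quasi-likelihood test (robust, genotype as the only term) in R 4.3.3. P-values were Benjamini-Hochberg adjusted over all tested genes, with calls at 0.05. SE is the log2 fold change divided by the square root of F. CPM is TMM-scaled, except that marker sums use each library's own total. The relative fit took the geometric mean of Adgre1 and Csf1r counts as library size. Transcripts were fitted in the same way, and their shares with limma 3.58.1 (voom, diffSplice). Precision is set by 3 libraries per genotype and by 37349505 to 55771087 counts per library. Libraries of a genotype differed beyond sampling noise (chi-square per gene of at least 70.3).

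The 10 members and the gene lists were chosen with earlier results of these data known. Named were the members, Adgre1, Csf1r, Tet2, Il1b, Il18, Naip2, Naip5, Dpp9 and Il1rn, up to 5 called genes per related list by smallest p, the 3 protein-coding genes of mean log2 CPM of at least 2 most like Nlrp3, Pycard and Casp1, and transcripts with at least 10% of the TPM of their gene in a library. Cd209a, Syk and single defining markers were named after their values were seen. Alternatives were other scalings and filters, DESeq2 1.42.0, limma voom, limma on log2(TPM + 1) and log2(TPM + 0.1), length-scaled TPM counts, a replicate block and each library left out. Leaving out replicates 1 of both genotypes together and a fibroblast marker covariate (mean log2(CPM + 0.5)) were added after seeing the data.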

Additional observations from a re-analysis of the deposited data

How the results depend on the processing

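Of 300 alternative fold changes of the 10 members on both scales, 249 kept their direction and their side of the threshold, 23 no longer passed it, 6 newly passed it and 22 changed sign. Most members had no call to lose, and the 23 lost calls were all of Casp1, Pycard and Nlrp1a on the TMM scale. With single libraries left out, Casp1 was called in 4 of 6 fits, Pycard in 1 and Nlrp1a in 2. In the 12 other settings Casp1 was called in 8, Pycard in 7 and Nlrp1a in 8. The members called, 3 with edgeR and TMM, were 0 with limma on log2(TPM + 1) and 0 with limma on log2(TPM + 0.1), 0 with replicates 1 of both genotypes left out together and 0 with the fibroblast marker covariate. They ranged from 0 (without Tet2 WT replicate 1 or 3) to 5 (without Tet2 WT replicate 2) with single libraries left out. Genes called numbered 2653, with 3393 in DESeq2 and 1382 to 3141 with single libraries left out. They numbered 1188 without both replicates 1 and 0 with the covariate, where 1514 had an unadjusted p under 0.05. The log2(TPM + 1) fit called 384 higher and 1930 lower, against 1001 higher and 1652 lower with edgeR.

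Relative to Adgre1 and Csf1r, 8211 genes were called, 4545 to 8669 with single libraries left out and 3846 without both replicates 1. Members called there were 1, ranged from 1 to 2 with single libraries left out and were 2 with no low-count filter. Transcripts called numbered 1417, and 323 to 1220 with single libraries left out. Transcripts with changed usage numbered 116, and 48 to 328 with single libraries left out and 70 with the stricter filter.

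Signs turned under the covariate for Nlrp3 (-1.29), Pycard (-0.35), Casp4 (-1.63), Nlrc4 (-0.14) and Nlrp1b (-1.41), with none called. Casp4 was -0.0084 on both TPM scales and -0.035 to 0.38 with single libraries left out. Nek7 was -0.11 with log2(TPM + 1), -0.12 with log2(TPM + 0.1) and -0.025 without both replicates 1. Relative to Adgre1 and Csf1r, Nlrp3 was 0.19 without both replicates 1 and -0.46 to 0.030 with single libraries left out. Nlrp1a, at -0.0038, was 0.014 with Adgre1 alone, 0.057 with 16 macrophage markers, 0.14 without both replicates 1 and -0.16 to 0.10 with single libraries left out. The cause of these changes was not tested.

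Same-numbered libraries correlated at 0.06, 0.13 and 0.04, so the numbers were not taken as pairs, although each library correlated best with its own number. With a replicate block 2347 genes, 3 members and 592 transcripts were called, and Nlrp1a relative to Adgre1 and Csf1r was 0.015. Among the related genes named, the block ended the call of Casp8.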
